A study of Mus musculus with 8 samples.

Results

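The 10 genes described here encode chromatin proteins that dividing cells use: Ezh2, Eed and Suz12, which form polycomb repressive complex 2; Hells, Uhrf1, Dnmt1 and Dnmt3a, which place or keep DNA methylation; and H2afz, H2afx and Hmgb2, which are histone variants and a high mobility group protein. They were chosen by name among the 24421 genes tabulated, with earlier results of these data known but without a threshold on any measured value. Their levels were read across the hormone-defined cells of mouse islets, between β-cells with and without a unique molecular identifier (UMI, a tag marking 1 captured RNA molecule) of Top2a or Cdk1, and between partial pancreatectomy (PPTx) and control. Top2a, a topoisomerase that untangles DNA, and Cdk1, the kinase that drives entry into mitosis, mark cells in the later part of the cell cycle.

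The islets came from 8-week-old male C57BL/6J mice. In the PPTx group, 50% of the pancreas had been removed 2 days before the islets were isolated, and the control mice had no operation, so that surgery itself and loss of tissue cannot be told apart. Each group held 4 samples, and each sample pooled islets of 1 to 3 mice, so that a sample is not always 1 animal. The dispersed cells were isolated in droplets and their RNA was counted by UMI at single-cell resolution.

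Polycomb repressive complex 2 adds methyl groups to lysine 27 of histone H3 and silences genes. Ezh2 is its catalytic subunit, and Eed and Suz12 are the partners it needs for activity. In β-cells Ezh2 is known for repressing the cell cycle inhibitor locus Cdkn2a in young animals. DNA methylation has to be copied after each replication: Uhrf1 recognizes hemimethylated DNA and recruits the maintenance methyltransferase Dnmt1, Hells is a remodeller that opens chromatin for methylation, and Dnmt3a sets new methylation marks. H2afz encodes the variant H2A.Z found around promoters, H2afx the variant H2A.X that is phosphorylated at DNA breaks, and Hmgb2 a DNA-bending protein of dividing cells.

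Promoters are shown for 4 of the members whose RNA was higher in β-cells with Top2a or Cdk1 UMIs, because cell cycle genes are commonly driven by E2F factors, by the CHR element bound by the DREAM complex and by CCAAT boxes bound by NF-Y. The sequences are RefSeq promoters of build GRCm38.p6, 250 bases before to 50 bases after a transcription start, written 5′ to 3′ on the gene's strand, with matches in capitals. The motifs searched on both strands were TTTCCCGC, TTTGGCGC, TTTCGCGC and TTTGCCGC for E2F. For CHR the letters were TTTGAA, with a second form that reads TTCGAA. For NF-Y they were CCAAT, and matches were free to overlap.
Ezh2, chr6:47594981-47595280, minus strand: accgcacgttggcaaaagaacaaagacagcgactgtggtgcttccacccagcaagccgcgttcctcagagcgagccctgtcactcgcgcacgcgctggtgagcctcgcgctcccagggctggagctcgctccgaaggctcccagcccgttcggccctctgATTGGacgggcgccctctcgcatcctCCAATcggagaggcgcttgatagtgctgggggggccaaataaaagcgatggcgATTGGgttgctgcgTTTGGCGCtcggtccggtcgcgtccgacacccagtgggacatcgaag
Hells, chr19:38930740-38931039, plus strand: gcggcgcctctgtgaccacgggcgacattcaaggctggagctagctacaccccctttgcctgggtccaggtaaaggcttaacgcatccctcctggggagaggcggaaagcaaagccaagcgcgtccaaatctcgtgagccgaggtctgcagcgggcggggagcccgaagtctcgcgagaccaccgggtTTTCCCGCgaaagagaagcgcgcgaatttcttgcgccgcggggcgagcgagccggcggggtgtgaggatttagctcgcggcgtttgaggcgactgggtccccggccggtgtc
Uhrf1, the downstream of 2 starts, chr17:56304063-56304362, plus strand: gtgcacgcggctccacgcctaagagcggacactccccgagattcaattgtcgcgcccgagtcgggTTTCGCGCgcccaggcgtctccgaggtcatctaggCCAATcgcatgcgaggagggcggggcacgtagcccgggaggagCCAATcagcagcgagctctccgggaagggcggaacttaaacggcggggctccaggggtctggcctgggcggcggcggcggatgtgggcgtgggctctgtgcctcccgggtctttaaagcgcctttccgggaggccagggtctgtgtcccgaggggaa
Hmgb2, chr8:57511593-57511892, plus strand: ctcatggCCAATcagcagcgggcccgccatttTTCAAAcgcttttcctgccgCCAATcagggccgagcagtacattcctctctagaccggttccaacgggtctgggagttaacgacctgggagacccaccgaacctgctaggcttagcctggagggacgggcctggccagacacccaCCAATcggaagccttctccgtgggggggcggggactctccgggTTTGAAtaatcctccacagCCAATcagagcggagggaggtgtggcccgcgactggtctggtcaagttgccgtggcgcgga

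In the Ezh2 window an E2F match lies 4 bases into the transcript, behind 3 CCAAT matches on either strand. The Hells window holds an E2F match at position -62 from the start and neither of the other motifs. The downstream Uhrf1 start has an E2F match at -185 and 2 CCAAT matches, whereas the upstream start has 3 CCAAT matches and no E2F match. The Hmgb2 window has CHR matches at -218 and -30 and 4 CCAAT matches, with no E2F match. Of all 32851 starts in the RefSeq table, 2.26% held an E2F match, 19.2% a CHR match, 37.4% a CCAAT match and 3.37% at least 3 CCAAT matches. The table held 9 members with 14 starts, and lists H2afz as H2az1. E2F letters were found in at least 1 start of 5 of these 9 members, namely Ezh2, Suz12, Hells, Uhrf1 and Dnmt1, and CHR letters in 4, namely Eed, Suz12, Dnmt1 and Hmgb2. CCAAT letters were found in 7 of the 9. The window of H2afz, whose RNA was also higher in these cells, held 3 CCAAT matches and neither E2F nor CHR letters. Eed and Suz12, which held such letters, did not pass the test of that difference. These counts take any start of a member, while the shares over all starts count each start, so they cannot be compared directly. The 3 starts of Dnmt3a held none of the 3 motifs and were 74.0% to 82.3% G and C. No entry was matched for H2afx. These matches describe letters in a window, and binding was not measured.

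Of 1240 deposited cells, 1232 passed the cell filter of the study. A cell was given to the hormone with most UMIs, and to a mixed class where the second hormone reached 1/3 of the first, which left 949 β-cells led by insulin, 125 PP cells led by Ppy, 110 α-cells led by Gcg, 9 δ-cells, 1 ε-cell and 38 mixed cells. Samples held 65 to 294 kept cells with 227439 to 1580152 UMIs, and the median per cell ran from 3328 to 8677 UMIs between samples. The classes were checked on markers that had not been used to set them. In all, 7 β-cell markers such as Iapp and Slc2a2 together reached 51671 CPM (counts of a gene per 1000000 UMIs of the same cells) in β-cells without Top2a or Cdk1 UMIs, against 4859 in PP cells, 1158 in α-cells and 22148 in the 9 δ-cells. The α-cell list reached 40522 CPM in α-cells and 3063 in PP cells. The PP list (Pyy, Fxyd2 and Vsig1) reached 113721 CPM in PP cells, but also 54463 in δ-cells and 19261 in α-cells, where Fxyd2 and Vsig1 were at 0. The δ-cell list stood at 3164 CPM in δ-cells and at 582 or less in α-, PP and β-cells, but below the β-cell and PP lists in the same δ-cells, so that the δ-cell label rests on Sst. Defining endothelial markers were near 0, with 21 UMIs over 5 genes in the 902 β-cells without Top2a or Cdk1 UMIs and 1 UMI in the 47 with them. In the same sets and order, 6 immune genes summed to 22.5 and 37.7 CPM and 5 stellate genes to 46.1 and 87.1 CPM, and their part in the results was not tested. A single barcode occurred in 2 samples.

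Of the 949 β-cells, 47 held a Top2a or Cdk1 UMI. The share was 2.43% ± 1.02 (SD, n = 4) in control and 6.56% ± 2.11 in PPTx samples, running from 1.28% to 3.33% and from 3.68% to 8.74%, without overlap (exact two-sided permutation test, p = 0.0286, the smallest that 4 against 4 samples allow). At an equal depth of 2000 UMIs per cell the expected shares were 1.71% ± 0.465 and 3.33% ± 0.779 (p = 0.0286, exact). The 47 cells were spread unevenly, with 1, 1, 4 and 4 cells in control samples 1 to 4 and 7, 16, 9 and 5 in PPTx samples 1 to 4. A level in the first 2 control samples therefore rests on 1 cell, where 1 UMI of a gene reads as 485 or 151 CPM.

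Between the β-cells with and without Top2a or Cdk1 UMIs, Ezh2, Hells, H2afz, H2afx and Hmgb2 rose under each of 2 scalings, from 5.16-fold for H2afz to 18.2-fold for Hmgb2 by pooled CPM. Uhrf1 was called as well, on 11 UMIs in all, which came from different samples in the cells with and without. Dnmt1 was 3.61-fold higher and passed the test under 1 scaling only. Eed and Suz12, the partners of Ezh2 in its complex, and Dnmt3a, the de novo methyltransferase, did not pass. The test was edgeR's quasi-likelihood test on UMIs summed per sample and state, with sample as a block, library sizes as scaling and Benjamini-Hochberg adjustment. It called 7 of the 10 members higher, Uhrf1 among them, and none lower, while 4.6% of the 10673 genes tested were called, 4.2% higher and 0.403% lower. Since the members were chosen with earlier results of these data known, these shares are set side by side as a description. TMM scaling, the method first set for this fit, shifted the median log2 fold change of all genes from 0.08 to -0.64 and called 211 genes higher and 613 lower in place of 448 and 43. Under TMM, Dnmt1 was no longer called (log2 fold change 1.0, adjusted p = 0.207 by edgeR) and Dnmt3a was called lower (-1.58, adjusted p = 0.0415 by edgeR). Ezh2, Hells, H2afz, H2afx and Hmgb2 had smaller log2 fold changes under TMM, at 2.96, 3.03, 1.63, 2.66 and 3.24. With library sizes these were 3.91, 3.67, 2.47, 3.52 and 4.02 in the same order.

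**Figure D1:**
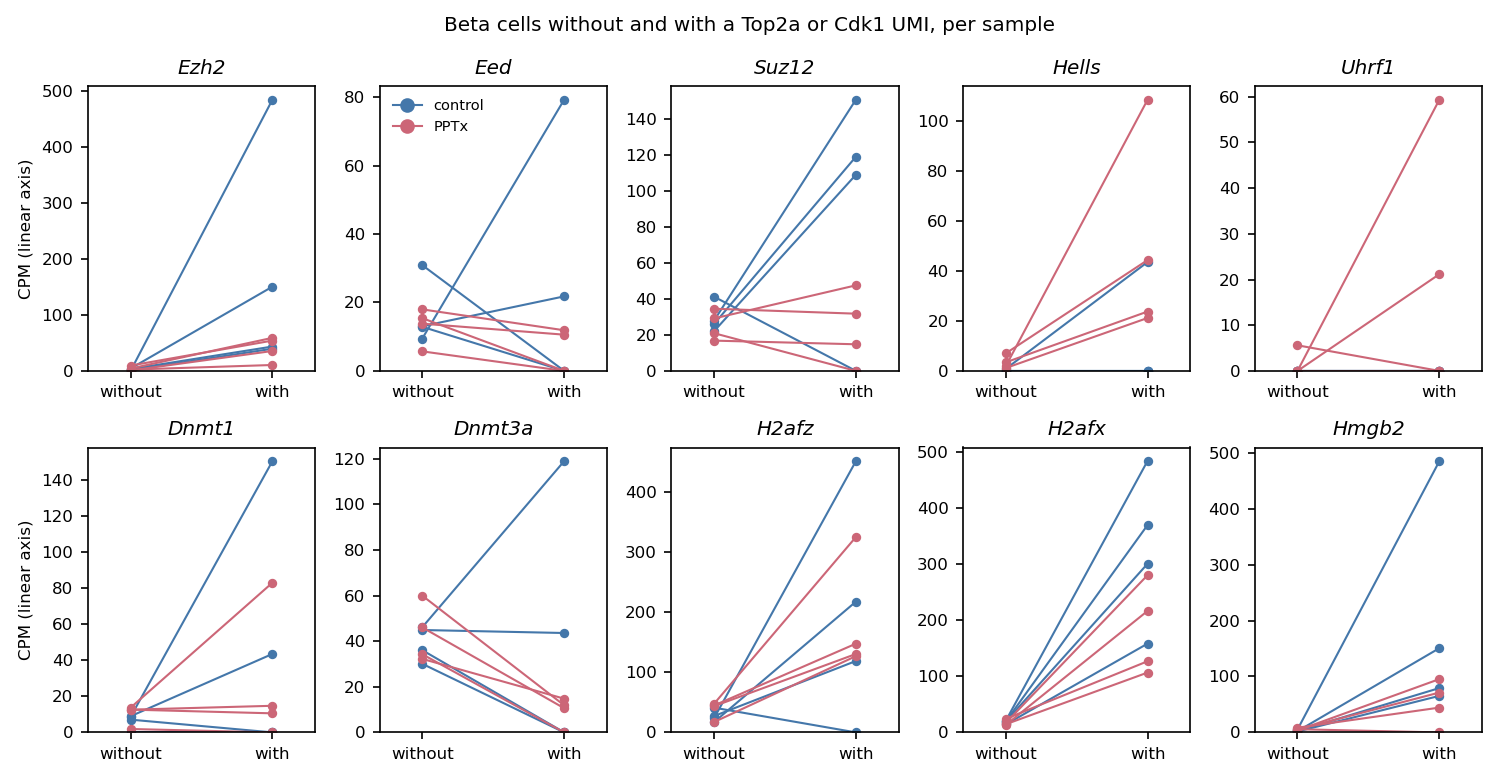
Level of each member in CPM (linear vertical axes) in β-cells without and with a Top2a or Cdk1 UMI, with 1 line per sample, blue for the 4 control and red for the 4 PPTx samples. Ezh2 and H2afx go up in all 8 samples, and the highest control points in the Ezh2, H2afx and Hmgb2 panels come from control sample 1, where the cells with UMIs are 1 cell.

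Ezh2, the catalytic subunit of polycomb repressive complex 2, had 14 UMIs in the 47 cells with and 18 in the 902 cells without Top2a or Cdk1 UMIs. With these UMIs it stood at 485, 151, 43.6 and 39.7 CPM in control samples 1 to 4 and at 59.1, 35.6, 10.6 and 54.3 CPM in PPTx samples 1 to 4. Without them it stood at 0, 4.30, 3.27 and 1.18 CPM in control and at 4.2, 0.856, 2.30 and 9.52 CPM in PPTx samples. Every sample was higher with than without, and the sets did not overlap. The mean within-sample difference was 107 CPM (SD 158, n = 8, higher in 8 of 8 samples, exact sign-flip test p = 0.00781, the smallest possible). Control sample 1, with 1 UMI in 1 cell, carries much of this mean, which was 52.6 CPM without it (SD 43.8, n = 7, exact p = 0.0156). Over all genes tested, 0.422% were higher in 8 of 8 samples. The pooled ratio was 13.6-fold (95% counting interval 6.24 to 28.9), and the fitted log2 fold change was 3.91 ± 0.60 (SE, adjusted p = 1.1e-08, edgeR). Counting intervals and floors cover the counting of UMIs only, not the spread between mice.

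Eed and Suz12 did not pass the test. Eed, the subunit that reads the methyl mark, was at 14.5 CPM with and 13.8 CPM without Top2a or Cdk1 UMIs, a ratio of 1.05 (interval 0.332 to 2.55), higher in 2 and lower in 6 of 8 samples (exact p = 0.984). Without control sample 4 the Eed ratio was 0.647. Suz12, the scaffold of the complex, was at 49.4 and 26.1 CPM, a ratio of 1.89 (interval 1.07 to 3.12), higher in 4 of 8 samples (exact p = 0.219). Its fitted log2 fold change was 0.99 ± 0.44 (adjusted p = 0.241, edgeR), and under TMM 0.20, while that of Eed turned from 0.09 to -0.64 with neither called. For Suz12 the levels with Top2a or Cdk1 UMIs were 0, 151, 109 and 119 CPM in control and 14.8, 47.5, 31.8 and 0 CPM in PPTx samples, so the samples that were high were 3 of the controls. The difference between Ezh2 and its partners was not tested.

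Hells, the remodeller needed for methylation of repeats, had 11 UMIs in the 47 cells and 12 in the 902. It stood at 0, 0, 43.6 and 0 CPM in the control samples and at 44.4, 23.8, 21.2 and 109 CPM in the PPTx samples with Top2a or Cdk1 UMIs. Without them, control samples were at 0, 0, 0.816 and 0 CPM and PPTx samples at 7.01, 3.43, 1.15 and 1.90 CPM. The level was higher with than without in the 5 samples that held a Hells UMI, and the other 3 were at 0 in both (mean difference 28.4 CPM, SD 35.8, n = 8, exact p = 0.0625, the smallest that 5 non-zero differences allow). Without PPTx sample 4 the mean difference was 17.2 CPM. The pooled ratio was 16.0-fold (interval 6.39 to 39.6), with a fitted log2 fold change of 3.67 ± 0.69 (adjusted p = 8.3e-06, edgeR).

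Uhrf1, which brings Dnmt1 to newly copied DNA, had 7 UMIs in the 47 cells and 4 in the 902, all 11 in PPTx samples. With Top2a or Cdk1 UMIs it was at 59.4 CPM in PPTx sample 2 and 21.2 CPM in PPTx sample 3 and at 0 in the other 6 samples, and without them it was at 5.61 CPM in PPTx sample 1 and at 0 elsewhere. The sets thus came from different samples, and the within-sample difference did not pass (higher in 2 and lower in 1 of 8 samples, exact p = 0.5, smallest possible 0.25). The pooled ratio was 30.5-fold (interval 7.76 to 142), and 9.29-fold without PPTx sample 2. The adjusted p was 0.0018 by edgeR, and 0.438 where 2 UMIs of Top2a and Cdk1 were asked for. Uhrf1 passed the filter of 10 UMIs with 7 of its 11 in the set where it is high, so this call is given as a description.

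Dnmt1, the maintenance methyltransferase, was at 0, 151, 43.6 and 0 CPM in control and at 14.8, 83.2, 10.6 and 0 CPM in PPTx samples with Top2a or Cdk1 UMIs, against 0, 8.59, 8.98 and 7.10 CPM and 12.6, 13.7, 12.7 and 1.90 CPM without. It was higher in 4 and lower in 3 of 8 samples, and the sets overlapped (mean difference 29.7 CPM, SD 52.4, n = 8, exact p = 0.203), at 13.6 CPM without control sample 2. The pooled ratio of 3.61 (interval 1.76 to 6.79) fell to 2.21 without PPTx sample 2, which held 7 of the 12 UMIs. The adjusted p of 0.0491 by edgeR became 0.602 without that sample, and it ran from 0.00258 to 0.716 over 17 alternatives, with 6 of them past the threshold. The log2 fold change of Dnmt1, 1.61 in the main fit, turned to -3.66 with cells thinned to equal UMIs, where it was not called.

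Dnmt3a, the de novo methyltransferase, lay the other way. It was at 23.2 CPM with and 44.3 CPM without Top2a or Cdk1 UMIs, lower in 7 of 8 samples, with a ratio of 0.524 (interval 0.224 to 1.05, exact p = 0.289). In the 8 samples the level ran from 0 to 119 CPM with these UMIs and from 30.1 to 60.0 CPM without, so the sets overlapped, and control sample 4 was the 1 sample that was higher. Without it the exact p was 0.0156 (mean difference -29.0 CPM, n = 7). With any other single sample left out, the exact p was 0.297 to 0.516. Its log2 fold change was -0.89 ± 0.51 (adjusted p = 0.431, edgeR) and it was called lower in 3 of 17 alternatives, under TMM, under DESeq2's size factors and by DESeq2's own test. In these 3 the median log2 fold change of all genes was -0.64, -0.87 and -0.65.

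H2afx, the variant histone of DNA break signalling, had 68 UMIs in the 47 cells and 106 in the 902. With Top2a or Cdk1 UMIs it was at 485, 301, 370 and 159 CPM in control and 281, 107, 127 and 217 CPM in PPTx samples. Without them it was at 20.6, 19.3, 19.6 and 14.2 CPM and at 16.8, 14.6, 24.2 and 13.3 CPM. Every sample was higher with than without and the sets did not overlap (mean difference 238 CPM, SD 129, n = 8, exact p = 0.00781). The pooled ratio was 11.2-fold (interval 8.12 to 15.3) and the log2 fold change 3.52 ± 0.32 (adjusted p = 1.4e-25, edgeR). It was called in each of 18 alternatives.

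H2afz, which encodes H2A.Z, was at 0, 452, 218 and 119 CPM in control and 148, 131, 127 and 326 CPM in PPTx samples with Top2a or Cdk1 UMIs, and between 17.1 and 47.6 CPM without. It was higher in 7 of 8 samples, the exception being control sample 1 with its single cell (mean difference 157 CPM, SD 143, exact p = 0.0156, n = 8). The ratio was 5.16-fold (interval 3.74 to 7.0), and the log2 fold change 2.47 ± 0.31 (adjusted p = 2.3e-13, edgeR). H2afv, which encodes a close relative of H2A.Z, is counted apart, and how reads shared by near copies were assigned is not given in the sources used here.

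Hmgb2 was at 485, 151, 65.4 and 79.3 CPM in control and 44.4, 71.3, 95.3 and 0 CPM in PPTx samples with Top2a or Cdk1 UMIs, and at most 8.41 CPM without. It was higher in 7 of 8 samples, and PPTx sample 4 was lower (mean difference 120 CPM, SD 152, n = 8, exact p = 0.0156). Without control sample 1 the mean difference was 68.2 CPM (SD 47.6, n = 7, exact p = 0.0312). Over all genes, 1.79% were higher in at least 7 of 8 samples. The pooled ratio was 18.2-fold (interval 9.95 to 33.2), with a log2 fold change of 4.02 ± 0.47 (adjusted p = 4.4e-15, edgeR). With cells thinned to equal UMIs it was no longer called (3.44, adjusted p = 0.0733, edgeR).

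**Figure D2:**
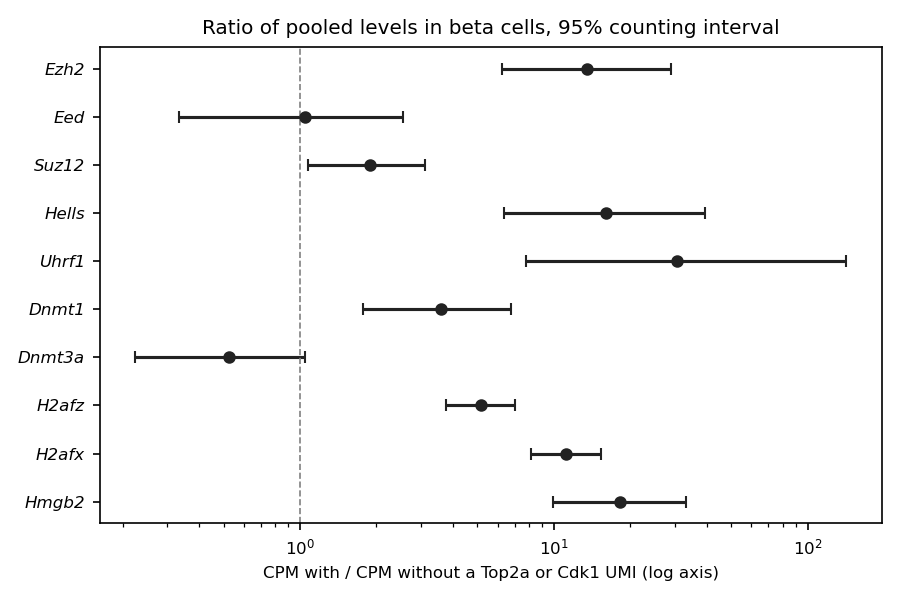
Ratio of pooled CPM in β-cells with over without a Top2a or Cdk1 UMI (log horizontal axis), with 95% counting intervals and a dashed line at 1. Ezh2, Hells, Uhrf1, H2afz, H2afx and Hmgb2 have intervals that start above 3, and the intervals of Eed and Dnmt3a include 1.

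The 47 cells held 51.0% of all Hmgb2 UMIs of β-cells, 63.6% of those of Uhrf1, 47.8% of those of Hells, 43.8% of those of Ezh2 and 39.1% of those of H2afx. The shares were 22.8% for H2afz and 17.1% for Dnmt1, and for Eed, Suz12 and Dnmt3a they were 5.68%, 9.77% and 2.92%. Of all 6349950 UMIs of β-cells, these 47 cells held 344467. Of the 47 cells, 24 had UMIs of at least 3 of the 10 members and 5 had none, against 52 and 387 of the 902 cells without Top2a or Cdk1 UMIs. Median depth was 6638 and 6009.5 UMIs per cell in these sets.

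Single cells were also compared at an equal depth of 2000 UMIs. Of β-cells with Top2a or Cdk1 UMIs, 28.2% would hold an H2afx UMI at 2000 UMIs per cell, against 3.35% of those without and 3.46% of cells of other hormones without these UMIs. With all UMIs these shares were 53.2%, 9.87% and 8.26%, at median depths of 6638, 6009.5 and 4340.5 UMIs. H2afz was found in 27.1%, 6.76% and 6.28% at equal depth, Hmgb2 in 12.8%, 0.953% and 0.646%, and Ezh2 in 8.77%, 0.578% and 0.654%. With all UMIs the shares for H2afz were 59.6%, 17.4% and 14.0%, for Hmgb2 31.9%, 2.44% and 1.65%, and for Ezh2 27.7%, 1.66% and 1.24%. For these 4 genes the difference at equal depth passed the exact sign-flip test over 8 samples (p = 0.00781 for Ezh2 and H2afx, 0.0156 for H2afz and Hmgb2). Over all 10673 genes, 2.01% passed it higher and 15.5% lower. It did not pass for the other 6 members, with exact p = 0.0625 for Hells and 0.5 for Uhrf1 (the smallest possible being 0.0625 and 0.25), 0.172 for Dnmt1, 0.188 for Suz12, 0.578 for Eed and 0.125 for Dnmt3a. RNA free in the droplets gives UMIs in cells that do not express a gene, so the low shares of H2afz, H2afx, Ezh2 and Hmgb2 in β-cells without Top2a or Cdk1 UMIs, set beside those in cells of other hormones, cannot be told apart from background.

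The 47 cells were of 3 kinds, 19 with Top2a alone, 13 with Cdk1 alone and 15 with both. H2afx was at 310 CPM (interval 226 to 417) in cells with both, against 120 CPM (68.3 to 194) with Top2a alone and 116 CPM (50.2 to 229) with Cdk1 alone. Without control sample 3 the level in cells with both was 246 CPM (162 to 359), which overlaps that with Top2a alone (76.1 to 216). Ezh2 was found in 10 of 15 cells with both, in 1 of 19 with Top2a alone and in 2 of 13 with Cdk1 alone, and was at 77.6 CPM (38.7 to 139), 7.47 CPM (0.189 to 41.6) and 29.1 CPM (3.52 to 105). Without PPTx sample 1, Ezh2 was at 78.9 CPM with both, at 0 with Top2a alone and at 17.0 CPM with Cdk1 alone. Top2a-alone cells were at 12.8 CPM without PPTx sample 2, and Cdk1-alone cells at 18.6 CPM without PPTx sample 4. For Dnmt1, 9 of 12 UMIs were in cells with Top2a alone, and for Uhrf1, 6 of 7 were. PPTx sample 2 held 7 of these 12 and 5 of these 7, and without it Top2a-alone cells kept 3 Dnmt1 UMIs (38.3 CPM, 7.89 to 112) and 2 Uhrf1 UMIs, against 2 and 0 in cells with both. The Dnmt1 intervals overlapped with all samples too (30.7 to 128 with Top2a alone, 4.36 to 61.8 with both). No UMI of either was in cells with Cdk1 alone, where the interval reaches 53.6 CPM. The 3 sets held 133871, 68841 and 141755 UMIs in the order given, were split after the values were seen, and no test was made. They pool control and PPTx cells unevenly, since 9 of 10 control but 19 of 37 PPTx cells held a Cdk1 UMI.

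The marks of replication were also read in the 902 β-cells without Top2a or Cdk1 UMIs, by 7 genes of DNA synthesis, Pcna, the sliding clamp, and Mcm2 to Mcm7, the replicative helicase. This reading was added after the data were seen. These 7 genes together stood at 711 CPM in the 47 cells with Top2a or Cdk1 UMIs and at 74.4 CPM in the 902 without. Among the 902, the 11 cells that held a Hells UMI had 49 UMIs of the 7 genes, 563 CPM, against 67.2 CPM in the cells with no Hells UMI, a ratio of 8.38 (interval 6.10 to 11.3). The 50 cells with a Dnmt1 UMI were at 216 CPM against 63.8 CPM, a ratio of 3.38 (2.66 to 4.27), and the 157 with an H2afz UMI at 147 CPM against 57.5 CPM, a ratio of 2.55 (2.09 to 3.10). The 2 cells with a Uhrf1 UMI, both of PPTx sample 1, held 17 UMIs of the 7 genes.

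For H2afx and Suz12 the same ratios were 1.14 (0.855 to 1.5) and 1.12 (0.875 to 1.41), with intervals that include 1. So do those of Ezh2, at 1.66 (0.898 to 2.81), and of Eed, which lay below 1 at 0.804 (0.555 to 1.13). For Dnmt3a the interval lay below 1, with 60.9 CPM of the 7 genes in the 209 cells that held its UMI against 79.5 CPM in the rest. Its ratio was 0.766 (0.606 to 0.960), lower in 7 of 8 samples (exact sign-flip p = 0.0312). That p is not adjusted over the members, and the share of all genes that would pass was not counted. Over samples, none of the higher members passed this test: the level of the 7 genes was higher in 3 of 5 samples for Hells (exact p = 0.25), in 5 of 7 for Dnmt1 (0.156), in 5 of 8 for H2afz (0.117) and in 3 of 8 for Hmgb2 (0.328). Without PPTx sample 1 the Hells ratio was 5.34, from 16 UMIs in 7 cells, and the Hmgb2 ratio fell from 2.14 to 1.51. Cells that held a member's UMI were deeper, for Hells with a median of 8261 against 5992 UMIs, and CPM takes account of depth in its denominator alone.

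**Figure D3:**
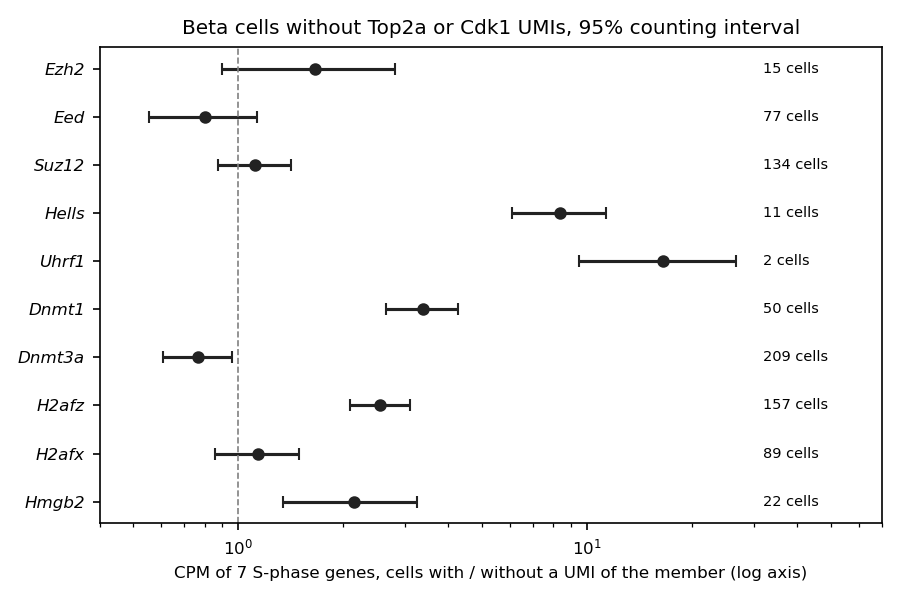
Ratio of the summed CPM of Pcna and Mcm2 to Mcm7 between β-cells with and without a UMI of each member (log horizontal axis), among the 902 β-cells without Top2a or Cdk1 UMIs, with 95% counting intervals and the number of cells that held the member. Hells, Uhrf1, Dnmt1, H2afz and Hmgb2 lie above 1 with their intervals, and Dnmt3a below 1.

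In PPTx against control, no member was called in all β-cells by edgeR (10 tested; 0.206% of 10675 genes called, 0.15% higher and 0.0562% lower), and 3 had an unadjusted p under 0.05, Hells, H2afz and Uhrf1, as did 8.07% of all genes tested. Hells (3 UMIs in control and 20 in PPTx samples) and Uhrf1 (0 and 11) passed the filter of 10 UMIs through the PPTx samples alone, so their p-values are no support for a difference. By DESeq2 none was called, since its adjusted p was missing for all 10 members, and Hells had an unadjusted p under 0.05. By the exact test over samples, 4 of 40 member and cell set comparisons reached p = 0.0286, the smallest allowed, without overlap of the groups. These were Hells in all β-cells and in β-cells without Top2a or Cdk1 UMIs, and H2afx and Dnmt3a in cells of other hormones. In β-cells with Top2a or Cdk1 UMIs the groups overlapped for all 10 members (5.05% of 3584 genes without overlap), and the exact test passed for no member. Pooled ratios of PPTx to control lay below 1 with their counting intervals for Suz12 (0.268, 0.0900 to 0.783), H2afx (0.553, 0.329 to 0.951) and Dnmt3a (0.181, 0.0281 to 0.930). No member had an interval above 1 there, and the control side rests on 10 cells.

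Hells was at 0, 0, 2.36 and 0 CPM in control samples and at 10.2, 4.79, 3.11 and 5.52 CPM in PPTx samples, over all β-cells. The lowest PPTx sample was above the highest control sample, with 3 UMIs in control and 20 in PPTx samples, a ratio of 5.29 (interval 1.57 to 27.8). Groups without overlap were seen for 5.13% of the 10675 genes tested, 4.09% with PPTx higher. In β-cells without Top2a or Cdk1 UMIs the levels were 0, 0, 0.816 and 0 CPM against 7.01, 3.43, 1.15 and 1.90 CPM, from 1 and 11 UMIs (4.46% of 10473 genes without overlap, 3.42% with PPTx higher). The fitted log2 fold change over all β-cells was 2.21 ± 0.86 (adjusted p = 0.465, edgeR), and over alternatives it ran from 1.73 to 5.10, with an adjusted p of 0.297 to 0.808. All 3 control UMIs were in control sample 3. Without that sample the control count was 0, against which the PPTx level was at least 2.90-fold the 1.95 CPM that a count of 3 over the control group stands for (exact interval of the ratio from 2.15), and the fit of 5.10 against a count of 0 depends on the prior count.

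Uhrf1 had 0 UMIs in the 375 control and 11 in the 574 PPTx β-cells. It was at 5.12, 3.99, 2.08 and 0 CPM in PPTx samples, so the groups shared the value 0 (exact p = 0.143). The pooled PPTx level of 3.11 CPM was at least 2.91-fold higher than the 1.07 CPM that a count of 3 over the control group stands for. The exact 95% interval of the ratio, which also covers the counting of the 11 UMIs, starts lower, at 1.99. Without control sample 3 a count of 3 stands for 1.95 CPM, the bound was 1.59-fold and the interval started at 1.09. The fitted fold change of Uhrf1 depends on the prior count and is not given.

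**Figure D4:**
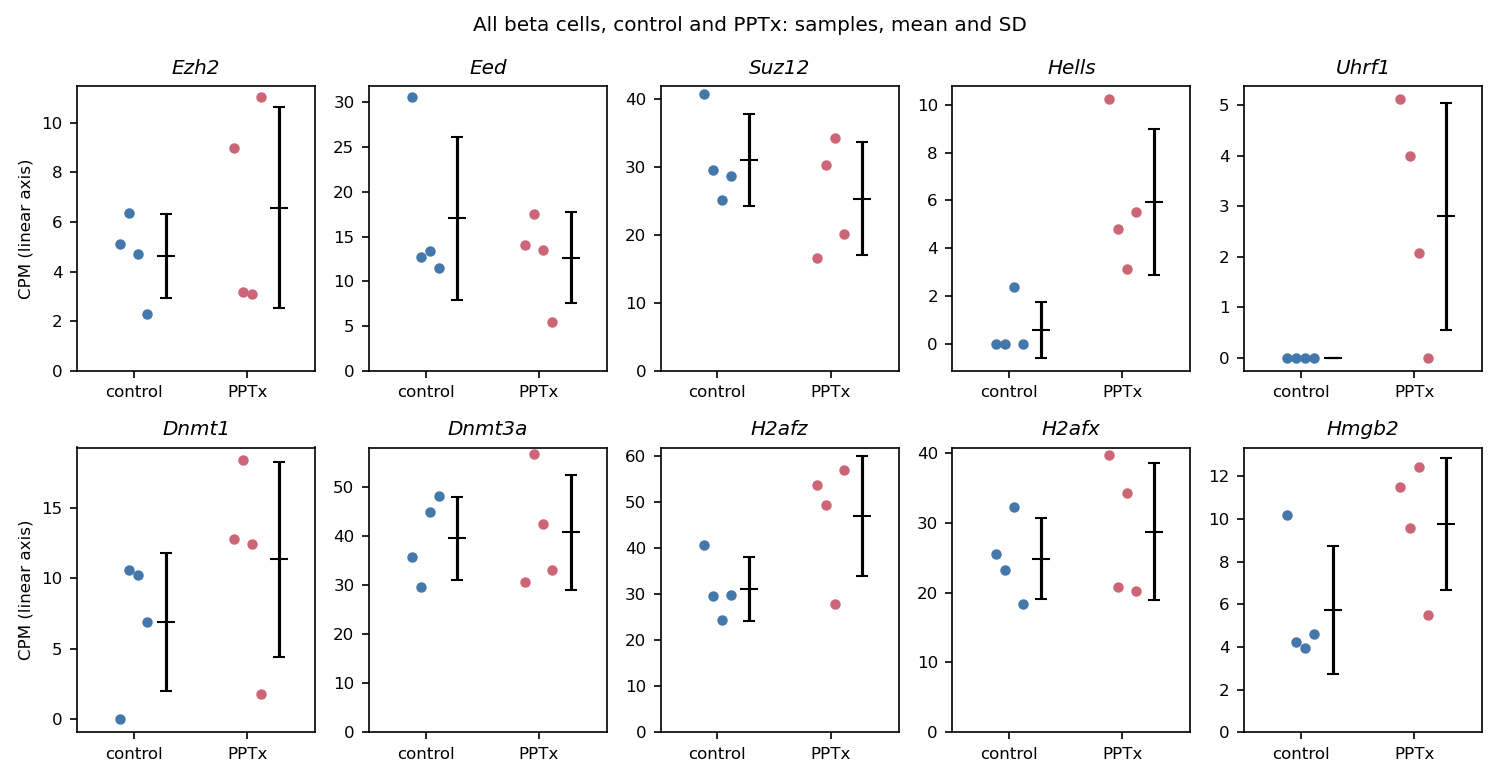
CPM of each member in all β-cells of the 4 control (blue) and 4 PPTx (red) samples on linear axes, with the mean and SD as a bar beside the points. For Hells the 2 groups do not overlap, and for Uhrf1 all control samples lie at 0 while 1 PPTx sample does too.

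H2afz was at 40.8, 29.6, 24.4 and 29.9 CPM in control and 53.8, 49.5, 28 and 57.0 CPM in PPTx samples, higher in 3 of 4 PPTx samples than in any control sample. The means were 31.2 ± 6.89 and 47.1 ± 13.1 CPM (exact p = 0.114), with a log2 fold change of 0.57 ± 0.26 (adjusted p = 0.566, edgeR). Hmgb2 was at 10.2, 4.24, 3.93 and 4.59 CPM and at 11.5, 9.59, 12.5 and 5.52 CPM (exact p = 0.0857). Its pooled ratio was 2.20 (interval 1.14 to 4.52), and its log2 fold change 0.95 ± 0.48 (adjusted p = 0.631, edgeR).

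For the other 6 members the groups overlapped and the exact test did not pass (p = 0.343 to 0.914). Ezh2 was at 4.62 ± 1.70 CPM in control and 6.58 ± 4.04 CPM in PPTx samples, Dnmt1 at 6.93 ± 4.91 and 11.4 ± 6.91 CPM, and H2afx at 24.9 ± 5.76 and 28.7 ± 9.76 CPM. Eed, Suz12 and Dnmt3a had pooled ratios of 0.997 (interval 0.642 to 1.56), 0.955 (0.701 to 1.3) and 1.02 (0.797 to 1.3). Among β-cells without Top2a or Cdk1 UMIs edgeR called none of 9 members tested (0.153% of 10473 genes called, 0.105% higher and 0.0477% lower), Hells alone having an unadjusted p under 0.05, as did 7.3% of all genes (1 UMI in control and 11 in PPTx samples, so it too passed the filter through PPTx samples alone), and DESeq2 called none, with every adjusted p missing.

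The step between β-cells with and without Top2a or Cdk1 UMIs was compared between PPTx and control as a difference of log2(CPM + 20) per sample. For none of the 10 members did this difference pass the exact test (p = 0.114 for Hells and Hmgb2 to 0.914 for H2afz). The step of Ezh2 was 2.60 ± 1.51 in control and 1.23 ± 0.54 in PPTx samples (p = 0.143, exact, n = 4 and 4), and that of Hells 0.40 ± 0.81 and 1.42 ± 0.77. The control values rest on 10 cells in all. Of these, 7 held Top2a and 9 held Cdk1 UMIs, against 27 and 19 of the 37 PPTx cells. The make-up of the set thus moved with the operation, and its part in the steps was not tested.

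Across hormones, the level of the members in β-cells without Top2a or Cdk1 UMIs did not pass the test against cells of other hormones, also without these UMIs (edgeR with sample as block, 0 of 9 members called at an adjusted p of 0.518 to 0.929, 0 at an unadjusted p under 0.05 by edgeR or by DESeq2, with 27.7% of all genes at that threshold by edgeR). In that comparison 17.4% of 10919 genes were called, 11% higher and 6.37% lower in β-cells. Dnmt3a was at 44.3 CPM in these β-cells and 57.9 CPM in cells of other hormones, H2afz at 31.0 and 33.1 CPM, and Ezh2 at 3.0 and 2.48 CPM. Uhrf1, with 4 and 1 UMIs, was too low to be tested.

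H2afx was at 44.4 CPM (interval 27.5 to 67.9) in α-cells, 17.7 CPM (14.5 to 21.3) in β-cells without Top2a or Cdk1 UMIs and 8.44 CPM (3.10 to 18.4) in PP cells, so the pooled interval of α-cells lay above the others. Most α-cells were from control and most PP cells from PPTx samples, and within control the intervals of α-cells (27.6 to 73.6) and PP cells (3.16 to 44.8) overlapped. H2afz was at 57.1 CPM (37.7 to 83.1), 31.0 CPM (26.7 to 35.8) and 23.9 CPM (13.9 to 38.3) in the same order. Dnmt3a was at 72.0 CPM (49.8 to 101), 44.3 CPM (39.1 to 49.9) and 50.6 CPM (35.5 to 70.1), where neighbours overlap. For δ-cells, a count of 3 in the 9 cells stands for 107 CPM, and no member could be placed. The α-cell and PP levels include the cells of these classes with a Top2a or Cdk1 UMI.

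**Figure D5:**
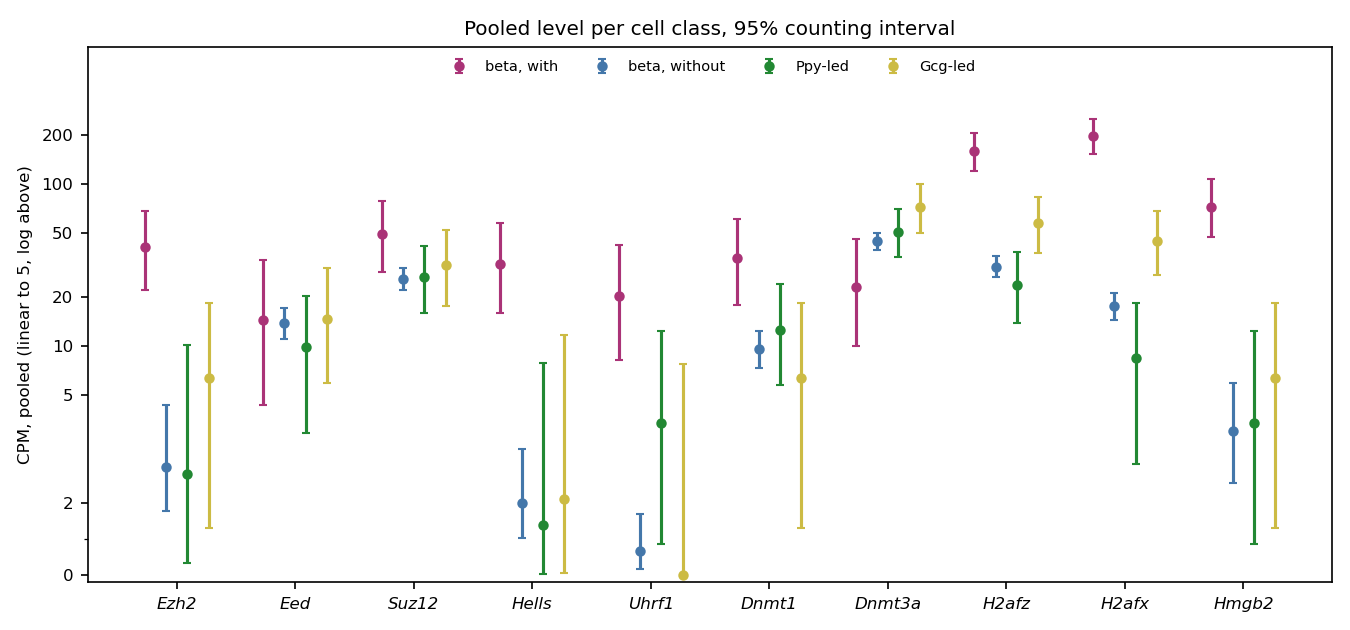
Pooled CPM of each member with 95% counting intervals in β-cells with and without a Top2a or Cdk1 UMI, in Ppy-led (PP) and in Gcg-led (α) cells; the vertical axis is linear up to 5 CPM and logarithmic above. H2afx and H2afz stand higher in α-cells than in β-cells without Top2a or Cdk1 UMIs, and the 47 β-cells with these UMIs stand highest for 8 members, Eed and Dnmt3a being the exceptions.

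In cells of other hormones, H2afx was lower in PPTx, at 74.5, 37.9, 38.4 and 21.2 CPM in control and 18.5, 7.99, 13.1 and 0 CPM in PPTx samples, without overlap (exact p = 0.0286, 3.53% of 7885 genes without overlap, 2.35% with PPTx lower). Dnmt3a was at 74.5, 56.9, 69.8 and 79.4 CPM and at 37.0, 47.9, 52.5 and 42.4 CPM, also without overlap (exact p = 0.0286). The make-up of these cells moved with the operation: 95 of the 132 control cells were α-cells, and 96 of the 113 PPTx cells were PP cells. Within α-cells, H2afx was at 46.6 CPM (27.6 to 73.6) in control and 34.9 CPM (7.20 to 102) in the 15 PPTx cells, and Dnmt3a at 69.9 CPM (46.0 to 102) and 81.5 CPM (32.8 to 168). Within PP cells, H2afx was at 15.3 CPM (3.16 to 44.8) and 5.82 CPM (1.20 to 17.0), and Dnmt3a at 76.7 CPM (42.9 to 126) and 40.8 CPM (25.2 to 62.3). The part of the cell make-up in the pooled difference was not tested.

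Other chromatin genes were read in 9 lists of 108 genes, of which 97 were tested between β-cells with and without Top2a or Cdk1 UMIs, and 28 rose and 0 fell (edgeR, 40 at an unadjusted p under 0.05, as were 14.3% of all genes), beside 4.2% called higher and 0.403% lower of all 10673 genes tested. The median log2 fold change of these 97 was 0.69, against 0.08 for all genes. The lists were also chosen with earlier results of these data known, so these shares are descriptions. Under TMM 14 of these 28 were still called higher and 2 of the 97 were called lower, beside 211 higher and 613 lower of all genes, with a median of -0.06 against -0.64 for all genes. Condensin and cohesin had 9 of 12 called (6 under TMM), histone chaperones 10 of 16 (5) and histone variants 5 of 9 (2). The largest changes were in Cenpa, the centromeric histone H3 (log2 fold change 4.81 ± 0.55, adjusted p = 3.9e-15, edgeR), and in the condensin subunits Ncaph, Ncapd2, Smc2 and Ncapg2, between 4.26 and 4.71. Each of these 5 was also called under TMM.

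Near the members in function, Rbbp7 was the 1 of 7 tested partners of polycomb repressive complex 2 that was called (1.04 ± 0.28, adjusted p = 0.00806, edgeR). None of 16 genes of polycomb repressive complex 1, none of 13 other genes of DNA methylation and its readers and none of 11 remodellers was called, though the remodeller Chd4 was called lower under TMM (-1.37, adjusted p = 0.0169, edgeR). Hmgb1 (2.13) and Hmgn1 (1.41) were the 2 called of 6 HMG genes, and Suv39h1 (2.56), a histone H3 lysine 9 methyltransferase, the 1 of 7 heterochromatin genes. Under TMM only Hmgb1 of these 4 genes was called (1.44, adjusted p = 0.0382, edgeR), while the HMG gene Hmgn3 was called lower (-1.25, adjusted p = 0.015, edgeR). Rbbp7, Chd4, Hmgb1, Hmgn1, Hmgn3 and Suv39h1 were named after their values were seen. Between PPTx and control, 0 of 97 of these genes were called in all β-cells and 0 of 93 in β-cells without Top2a or Cdk1 UMIs (edgeR), beside 0.206% and 0.153% of all genes. At an unadjusted p under 0.05 these were 9 and 5, beside 8.07% and 7.3% of all genes. Between β-cells and cells of other hormones 3 were higher and 7 lower of 98, beside 17.4% called over all genes (11% higher, 6.37% lower), with Kdm2b (2.07), H2afj (1.10) and Mbd2 (0.82) higher and Npm1 (-1.12), Smc1a (-1.06), Rbbp7 (-1.04), Cbx5 (-0.79) and Anp32e (-0.73) lowest in β-cells.

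The genes with the most similar pattern were sought over 25 sums of a sample and class, among 5807 genes, for the 7 members with at least 50 UMIs. For Hmgb2 these were Zfp367 (Pearson r = 0.88), Tcf19 (0.87) and Rrm1 (0.85), the large subunit of ribonucleotide reductase. For H2afz they were Tcf19 (0.80), Smc4 (0.79) and Hat1 (0.78), and for H2afx Psmc4, Nt5dc2 and Cdkn1a (each 0.77 to 0.78). For Eed, Suz12, Dnmt1 and Dnmt3a the nearest genes, at 0.80, 0.73, 0.76 and 0.75, were Gzf1, Akt1, Timm50 and Gmfb. Sums of the same sample share a library, so these values are descriptions without a test.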

How the data were processed

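Single-cell RNA of islet cells was measured in 8 samples. The authors isolated cells on a ddSEQ instrument, and the labels name a Chromium kit where the methods name a SureCell kit. Reads were converted with bcl2fastq, aligned to mm10 and counted with Cell Ranger. The deposited files hold UMI counts, not normalized, 1 table per sample.

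The cell limits of the study (100 to 3000 genes, 100 to 20000 UMIs) left out 8 of 1240 cells. Classes followed the leading hormone, doublets were treated by the mixed class alone, and Top2a and Cdk1 were left out of fits that used them. UMIs were summed per sample and set, and genes with at least 10 UMIs were tested with edgeR 4.0.16 in R 4.3.3 (quasi-likelihood, Benjamini-Hochberg, threshold 0.05), with DESeq2 1.42.0 as an alternative. TMM scaling was set for all fits. In the fit between β-cells with and without Top2a or Cdk1 UMIs it was replaced by library sizes, because sums of 1 cell got extreme TMM factors and unchanged genes were called on simulated data, and after results under both had been seen. The other fits kept TMM. Single values were tested with exact permutation or sign-flip tests, two-sided, over samples, with no adjustment over the members. Shares at equal depth are expectations for 2000 UMIs drawn per cell, and counting intervals are exact at 95%. Promoters are from RefSeq. The members and lists were chosen with earlier results of these data known. Named genes were the members, up to 5 called chromatin genes each way per fit, and the 3 genes most alike in pattern to each member with at least 50 UMIs, over sums of at least 20000 UMIs and genes of at least 100 UMIs. All 10 marker lists were read in every class: α-, δ-, PP- and ε-cell markers summed to 1808, 25.3, 791 and 1.67 CPM in β-cells without Top2a or Cdk1 UMIs, and acinar and ductal genes to 19.5 and 191 CPM. Alternatives covered scaling, tool, low counts, cell limits, class and state rules, depth, replicate block and leaving out samples.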

Additional observations from a re-analysis of the deposited data

Results flagged for a closer look

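In groups of 4 samples, 15 of 80 held a value far from the other 3 by Dixon's test, which chance flags in about 1 in 20 groups, and most rest on a few UMIs. In each flagged group of Hells and Uhrf1 the other 3 values were 0. There a single UMI is enough to be flagged, so the rate of 1 in 20 does not hold for such counts. In all β-cells the flagged values were Eed at 30.6 CPM in control sample 1 (6 UMIs), Hells at 2.36 CPM in control sample 3 (3 UMIs) and Hmgb2 at 10.2 CPM in control sample 1 (2 UMIs). In β-cells without Top2a or Cdk1 UMIs they were Eed at 30.9 CPM in control sample 1, Hells at 0.816 CPM in control sample 3 (1 UMI), Uhrf1 at 5.61 CPM in PPTx sample 1 (4 UMIs), and, on the low side, Dnmt1 at 1.90 CPM in PPTx sample 4 and H2afz at 17.3 CPM in PPTx sample 3. In β-cells with these UMIs they were Hells at 43.6 CPM in control sample 3 and H2afz at 326 CPM in PPTx sample 4. In cells of other hormones they were Ezh2 at 42.4 CPM and H2afz at 84.9 CPM in PPTx sample 4, Uhrf1 at 19.0 CPM in control sample 2 and 6.56 CPM in PPTx sample 3, and Suz12 at 31.4 CPM, low, in control sample 3. The 38 cells of mixed hormones, which entered no comparison, held 6 UMIs of Suz12, 16 of Dnmt3a, 7 of H2afz and 7 of H2afx, each above a count of 3.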

How the results depend on the processing

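Between β-cells with and without Top2a or Cdk1 UMIs, 491 genes were called, against 824 with TMM (the scaling first set, replaced by library sizes after results under both were seen), 1997 with DESeq2's size factors, 1871 by DESeq2's test, 99 with edgeR's default filter on low counts, 95 with cells thinned to equal UMIs and 361 to 447 with 1 sample left out. Ezh2, Hells, H2afz and H2afx were called higher in every alternative that gave an adjusted p. Hmgb2 was called in all but 1, cells thinned to equal UMIs (adjusted p = 0.0733, edgeR). Dnmt1 was called in 6 of 17 settings and Uhrf1 in 10 of 12 that gave an adjusted p. DESeq2 called 5 members, Dnmt3a lower, with adjusted p missing for 2. In all β-cells, PPTx against control called 22 genes, against 98 without a filter, 14 thinned, 11 without upper cell limits and 1 to 33 with 1 sample left out. In β-cells without Top2a or Cdk1 UMIs it called 16, against 25 by DESeq2, 81 without a filter, 5 without upper cell limits and 1 to 29 with 1 sample left out. β-cells against other hormones called 1897 genes, against 1087 with edgeR's default filter, 1060 thinned and 1619 to 2028 with 1 sample left out. The causes were not tested. A replicate block moved the counts for PPTx to 80 and 71, and called no member. The study names no pairing of the samples by number. Same-numbered samples correlated at 0.0255 to 0.185, 3 of 4 best with their own number. Whether same-numbered samples share a batch cannot be told from these values.

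Log2 fold changes that turned sign were called in neither fit, except Dnmt1 with against without Top2a or Cdk1 UMIs, at -3.66 (not called) when thinned. In the same comparison Eed turned to -0.64 with TMM, -0.86 with DESeq2's size factors, -0.81 by DESeq2's test, -0.52 where 2 UMIs of Top2a and Cdk1 were asked for, and ran from -0.63 (without control sample 4) to 0.42 with 1 sample left out, and Suz12 to -0.044 and -0.045 with DESeq2's size factors and test. For PPTx in all β-cells, Ezh2 ran from -0.0083 (without PPTx sample 4) to 0.68 with 1 sample left out, and H2afx from -0.15 (without PPTx sample 1) to 0.36, and was -0.091 when thinned. In β-cells without Top2a or Cdk1 UMIs, leaving out 1 sample gave -0.31 (without PPTx sample 4) to 0.87 for Ezh2, -0.28 to 0.10 (without control sample 1) for Eed and -0.38 to 0.012 (without PPTx sample 2) for H2afx, which was 0.046 with the 2-UMI rule. Dnmt3a there turned to 0.0056 without upper cell limits, 0.038 with the replicate block, and ran from -0.15 to 0.12 (without control sample 3) with 1 sample left out. Against other hormones, Dnmt1 turned to -0.14 when thinned and H2afz ran from -0.015 (without PPTx sample 2) to 0.58 with 1 sample left out. Hells, at 1.24, was -0.11 by DESeq2's test, with its adjusted p missing. Dnmt3a turned to 0.029 with DESeq2's size factors, 0.033 by its test, 0.031 with no filter, 0.12 thinned, 0.025 without upper cell limits and 0.014 with a wider cell cycle rule, and ran from -0.095 to 0.046 with 1 sample left out.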
